A study of Mus musculus with 33 samples.

Results

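CD8 T cells sorted from irradiated pancreatic tumours of mice were compared with CD8 T cells from unirradiated tumours, over all genes of 1 deposited comparison. The comparison rests on 6 of the 33 libraries of the study, 3 from the group given stereotactic body radiotherapy (SBRT) and 3 from the unirradiated group. Of 53735 genes in the authors' deposited table, 16359 carried an adjusted p, 50 rose and 27 fell. The rising genes included cell cycle genes, with Ccne1, Pkmyt1, Prim1 and Tk1 between 1.43-fold and 1.63-fold higher. The falling genes included Il7r, the interleukin 7 receptor of naive and memory T cells (1.81-fold lower), and Cd79b, a subunit of the B cell receptor (1.81-fold lower).

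The study sequenced RNA of CD8 T cells and 2 myeloid populations, inflammatory monocytes (IM) and macrophages (TAM), sorted from tumours of C57BL/6 mice. All mice carried tumours of KCKO cells, a mouse line of pancreatic ductal adenocarcinoma, started with 100000 cells in the tail of the pancreas, and fiducial markers implanted beside the tumour. SBRT groups received 4 fractions of 6 Gy on days 6 to 9 after implantation. Interleukin 12 (IL-12) groups received microspheres with 0.5 µg of the cytokine in 2 mg of beads, injected into the tumour on day 10. The unirradiated CD8 group had neither SBRT nor IL-12, and the SBRT group had no IL-12. The labels mention empty microspheres as a control without saying which groups received them, and they give neither the age of the mice nor the day of harvest. The gate was CD45+CD8+, which can also admit type 1 dendritic cells that carry CD8 alpha. KCKO is a single transplanted line, and the labels do not say whether tumours were pooled. They also do not say that the 3 libraries of a group came from separate mice, so the p-values measure only a spread between libraries. The mean levels were the same in the 3 CD8 comparisons, so that spread was probably fitted over all CD8 libraries, although the design of the fit is not given.

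The CD8 label was checked against marker genes, compared per kilobase of exon. Cd8b1 stood at 30246 and Cd8a at 12168 normalised counts per kilobase, both co-receptor chains, and Trac, the receptor alpha constant region, at 36943. Against these, Cd4 stood at 77.4, Foxp3 of regulatory T cells at 29.7 and Xcr1 of type 1 dendritic cells at 199. Lyz2, a lysozyme of myeloid cells, reached 6165, and the complement gene C1qb of macrophages 1719. Together the 15 CD8 identity genes made up 0.941% of the summed level. On the same measure the 15 macrophage markers made up 0.0460%, the 15 B and plasma cell markers 0.0248%, the 13 markers of type 1 dendritic cells 0.0182% and the 15 acinar cell markers 0.00490%. No value per library accompanies the tables, so the 3 values of a group cannot be shown, the depth is unknown, and a marker's share is a mean over all 12 CD8 libraries.

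Activated CD8 T cells multiply fast. Entry into DNA replication is driven by cyclin E with its kinase, which activates E2F transcription factors and the machinery that loads and fires replication origins, and mitotic genes follow later in the cycle. Naive and memory CD8 T cells instead depend on interleukin 7 and on transcription factors such as TCF1, and carry the homing receptor CCR7. Ionising radiation breaks DNA and activates p53, which raises the cell cycle inhibitor p21 and genes of apoptosis.

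Genes of DNA replication and S phase stood higher after SBRT. Of the 43 genes in this list, 5 rose and 0 fell, and all 43 had a fold change above 0, with a median log2 fold change of 0.32 (range 0.01 to 0.71). Over all 16359 genes with an adjusted p, 0.471% were called (0.306% higher and 0.165% lower), the median was -0.00336 and 49.4% were above 0. The members that rose were Ccne1, Prim1, Tk1, Cdc45 and Pold1. Among measures of RNA quality and cell state, the 85 ribosomal protein genes had a median of -0.18, 78 of them were below 0, none was called by the deposited test, and 23 were lower and 1 higher at an unadjusted p under 0.05. The 13 mitochondrially encoded genes had a median of 0.03. The part of such a shift in this list, and in the naive and memory and B cell lists, was not tested. A further 22 S phase members were higher at an unadjusted p under 0.05 without passing the adjustment, which makes 27 of 43, against 11.0% of all genes in either direction.

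Ccne1, the cyclin E1 gene whose product starts S phase (GRCm38 chr7:38097984-38107534, minus strand), had the smallest adjusted p of the whole comparison. In the authors' deposited table its mean level over the 12 CD8 libraries was 2510 normalised counts, and its log2 fold change was 0.52 ± 0.09 (3 libraries against 3; adjusted p = 2.4e-05). The value after ± for a deposited fold change is the ratio of fold change to Wald statistic, an approximate standard error, because the fold change is shrunken. Tk1, the thymidine kinase that salvages thymidine for DNA synthesis, was raised by 0.71 ± 0.15 (adjusted p = 0.0068). Prim1, the catalytic primase subunit, was raised by 0.56 ± 0.12 (adjusted p = 0.0053). Cdc45, part of the replicative helicase, was raised by 0.57 ± 0.13 (adjusted p = 0.012). Pold1, the catalytic subunit of DNA polymerase delta, was raised by 0.50 ± 0.13 and lay just inside the threshold (adjusted p = 0.048). These are moderate changes, between 1.41-fold and 1.63-fold, in genes of middle to high level. Gins1 (0.62, adjusted p = 0.075), Tyms (0.50, adjusted p = 0.080) and Rfc3 (0.51, adjusted p = 0.096) did not pass.

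Further genes with known roles in the cycle rose outside the lists, and they were grouped here after their values were seen. Pkmyt1, the kinase that holds CDK1 inactive before mitosis, rose by 0.59 ± 0.12 on the log2 scale (adjusted p = 0.0022). Orc1, the largest subunit of the origin recognition complex, rose by 0.64 ± 0.15, and Gmnn, geminin, which blocks a second round of origin licensing, by 0.61 ± 0.14 (adjusted p = 0.016 for each). Timeless, which protects replication forks, rose by 0.48. Rad51ap1, a gene of homologous recombination, rose by 0.68, and Recql4, a helicase of replication start and repair, by 0.72. Cdca5, also called sororin and needed to hold sister chromatids together, rose by 0.66, Spag5 of the mitotic spindle by 0.74, Dsn1 of the kinetochore by 0.51 and Ckap2 of spindle microtubules by 0.63. The adjusted p of these 7 genes ran from 0.012 for Dsn1 to 0.031 for Timeless. Mcm9, a relative of the replicative helicase that acts in recombination and mismatch repair, went the other way: it fell by 0.60 ± 0.12 on the log2 scale, or 1.51-fold (adjusted p = 0.0053).

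In the mitosis list 1 of 42 genes rose (2.38%, against 0.306% of all genes called higher) and 0 fell. That gene was Bub1, a kinase of the spindle checkpoint (log2 fold change 0.55 ± 0.14, adjusted p = 0.030). Its neighbours on the list leaned the same way, with 41 of 42 fold changes above 0, a median of 0.27, and 17 genes higher at an unadjusted p under 0.05. Mki67, the proliferation marker Ki-67, had 0.37 ± 0.12 (adjusted p = 0.12) and Top2a, topoisomerase II alpha, 0.32 ± 0.14 (adjusted p = 0.38), so neither passed. Kif20a was the one member below 0 (-0.07). None of the 38 genes in the DNA damage repair list was called by the deposited test, 9 of them had an unadjusted p under 0.05, all higher, and the median was 0.09.

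**Figure D1:**
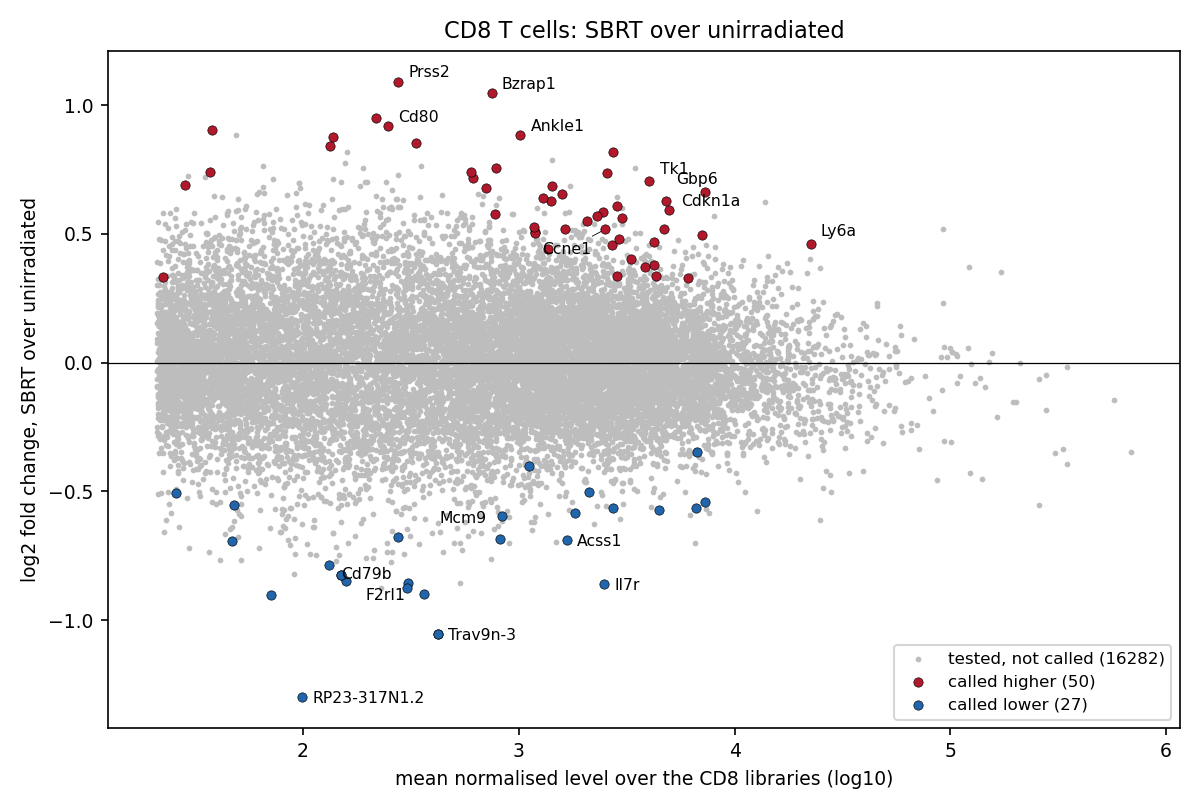
Log2 fold change of SBRT over unirradiated CD8 T cells (vertical axis) against the mean normalised level over the 12 CD8 libraries (horizontal axis, log10 scale). Each point is 1 of 16359 genes; the 50 called higher are red, the 27 called lower are blue, and most red points lie between 0.3 and 1.1, with Ccne1 among the smaller changes.

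Promoters are shown for cell cycle genes that rose, because known cell cycle motifs lie in them, and for 1 interferon-inducible gene that rose. The sequences are from RefSeq (GRCm38.p6), 250 bases before to 50 bases after each start, read 5′ to 3′ on the gene's own strand. Capitals mark E2F words in the first 4 (the letters TTCCCGC, a variant spelled TTCGCGC, another spelled TTGGCGC and one spelled TTGCCGC, on either strand), the cell cycle homology element TTTGAA on either strand in Spag5, and the interferon-stimulated response element on either strand in Gbp3, where 2 matches overlap. The windows are chr10:128014965-128015264 (plus strand) for Prim1, chr7:44548766-44549065 (minus) for Pold1, chr4:108579204-108579503 (plus) for Orc1, chr19:6084847-6085146 (plus) for Cdca5, chr11:78301341-78301640 (plus) for Spag5 and chr3:142559794-142560093 (plus) for Gbp3.
Prim1: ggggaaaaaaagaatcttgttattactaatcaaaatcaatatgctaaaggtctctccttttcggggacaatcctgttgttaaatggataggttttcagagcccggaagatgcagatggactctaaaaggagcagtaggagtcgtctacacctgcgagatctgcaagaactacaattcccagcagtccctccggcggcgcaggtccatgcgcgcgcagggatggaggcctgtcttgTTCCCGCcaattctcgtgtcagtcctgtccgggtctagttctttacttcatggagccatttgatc
Pold1: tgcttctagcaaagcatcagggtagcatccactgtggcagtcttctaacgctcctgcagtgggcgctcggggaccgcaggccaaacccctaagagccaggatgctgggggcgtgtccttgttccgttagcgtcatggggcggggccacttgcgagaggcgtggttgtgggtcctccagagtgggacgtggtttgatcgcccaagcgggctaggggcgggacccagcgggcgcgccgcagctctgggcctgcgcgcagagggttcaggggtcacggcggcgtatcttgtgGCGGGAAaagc
Orc1: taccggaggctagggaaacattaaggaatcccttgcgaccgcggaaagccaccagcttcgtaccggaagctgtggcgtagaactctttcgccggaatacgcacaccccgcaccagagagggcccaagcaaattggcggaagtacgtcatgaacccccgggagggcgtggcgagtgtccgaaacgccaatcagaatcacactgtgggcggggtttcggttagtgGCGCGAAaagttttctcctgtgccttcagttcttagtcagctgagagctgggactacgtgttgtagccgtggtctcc
Cdca5: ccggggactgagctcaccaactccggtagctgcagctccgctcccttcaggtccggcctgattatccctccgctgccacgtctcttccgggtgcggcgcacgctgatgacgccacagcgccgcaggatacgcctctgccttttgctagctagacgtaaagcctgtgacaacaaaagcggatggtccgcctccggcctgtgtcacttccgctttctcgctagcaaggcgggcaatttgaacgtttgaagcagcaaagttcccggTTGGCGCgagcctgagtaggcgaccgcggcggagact
Spag5: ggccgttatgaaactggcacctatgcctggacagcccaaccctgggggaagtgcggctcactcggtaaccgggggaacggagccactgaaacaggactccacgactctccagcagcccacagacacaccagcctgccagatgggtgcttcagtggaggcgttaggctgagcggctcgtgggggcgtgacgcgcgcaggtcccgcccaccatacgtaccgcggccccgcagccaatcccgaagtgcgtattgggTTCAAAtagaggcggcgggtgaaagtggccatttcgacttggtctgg
Gbp3: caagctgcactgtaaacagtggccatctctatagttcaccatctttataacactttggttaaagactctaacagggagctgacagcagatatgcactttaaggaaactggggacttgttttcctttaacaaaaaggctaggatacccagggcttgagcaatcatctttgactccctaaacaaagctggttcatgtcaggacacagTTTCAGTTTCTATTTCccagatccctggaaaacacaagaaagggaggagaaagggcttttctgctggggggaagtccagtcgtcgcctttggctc

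E2F words were found in 20 of the 35 S phase genes that had an entry in the promoter table (57.1%), against 9.69% of all 27025 promoters. The S phase members with an E2F word had a median log2 fold change of 0.32 (20 genes, 2 of them called) and those without one 0.40 (15 genes, 3 called). The TTTGAA element was in 26 of 34 mitosis promoters (76.5%) against 18.1% of all, and the median was 0.25 with it and 0.34 without. Among the 50 genes that rose, 33 had an entry, of which 8 held an E2F word (24.2%), namely Prim1, Dsn1, Aaas, Orc1, Rad51ap1, Cdca5, Ankle1 and Pold1. No E2F word of this spelling was in the windows of Ccne1, Cdc45 or Tk1. The motif shares describe the lists, and the median fold changes were not higher where a motif was present.

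The p53 targets gave 1 call. Of 18 targets for arrest and feedback, 1 rose and 0 fell (5.56%, against 0.471% of all genes), the median was 0.02, and 4 were higher and 2 lower at an unadjusted p under 0.05. Cdkn1a, which encodes p21 (GRCm38 chr17:29090976-29100727, plus strand), was the gene that rose: in the authors' deposited table its level was 4944 and its log2 fold change 0.59 ± 0.15, or 1.51-fold (adjusted p = 0.032). Psrc1 had a larger value, 0.82 ± 0.23, and Phlda3 0.60 ± 0.21, and neither passed (adjusted p = 0.065 and 0.19). The 2 on the lower side, named after their values were seen, were Sesn1 at -0.48 ± 0.20 and Trp53inp1 at -0.47 ± 0.19 (adjusted p = 0.30 for each). Mdm2, the ubiquitin ligase that degrades p53, had 0.03 ± 0.12 and Ccng1, cyclin G1, 0.02 ± 0.13. Among 14 measured apoptosis targets none was called, 3 had an unadjusted p under 0.05, and the median was 0.03. Bax, a pore-forming protein of mitochondria, had 0.41 ± 0.14 (adjusted p = 0.19), Pidd1 0.41 ± 0.12 (adjusted p = 0.095) and Bbc3, known as PUMA, -0.15 ± 0.23. Among 15 targets for repair and metabolism none was called, the median was -0.04, and 2 were lower at an unadjusted p under 0.05, Rrm2b (-0.42 ± 0.18) and Ephx1 (-0.51 ± 0.24).

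Il7r (GRCm38 chr15:9505788-9530176, minus strand) had the clearest lower value among regulators of naive and memory cells. Its level was 2476 normalised counts and its log2 fold change -0.86 ± 0.22, a 1.81-fold fall (adjusted p = 0.030). It was the only 1 of 22 list members that was called (4.55%, against 0.165% of all genes called lower). The list as a whole had a median of -0.37, with 19 of 22 below 0 and 10 lower at an unadjusted p under 0.05. Tcf7, which encodes TCF1, had -0.70 ± 0.26 (adjusted p = 0.23). Lef1, a partner of TCF1, had -0.49 ± 0.25, and Ccr7, the lymph node homing receptor, -0.49 ± 0.25 (adjusted p = 0.45 and 0.46). Their standard errors near 0.25 are larger than those of the S phase genes that rose, so fold changes of similar size did not pass. Bcl2, a survival protein, went the other way at 0.34 ± 0.12 (adjusted p = 0.19). In sorted bulk samples, fewer cells of a type and less RNA per cell cannot be told apart.

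Markers of B cells were lower alongside. Cd79b (level 305) fell by 0.86 ± 0.22 on the log2 scale (adjusted p = 0.030). It was the only 1 of 15 B and plasma cell markers called (6.67%, against 0.165% of all genes called lower). In all, 7 of the 15 were lower and 2, Igkc and Jchain, higher at an unadjusted p under 0.05, and the list median was -0.35. Ms4a1, which encodes CD20, had -0.61 ± 0.19 and Cd79a, the partner of Cd79b in the B cell receptor, -0.73 ± 0.22 (adjusted p = 0.11 for each). The immunoglobulin light chain gene Igkc was above 0 at 0.43 ± 0.20 (adjusted p = 0.40). Cxcr5 of the naive and memory list is also made by B cells; the part of the B cell markers in the values of that list was not tested.

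**Figure D2:**
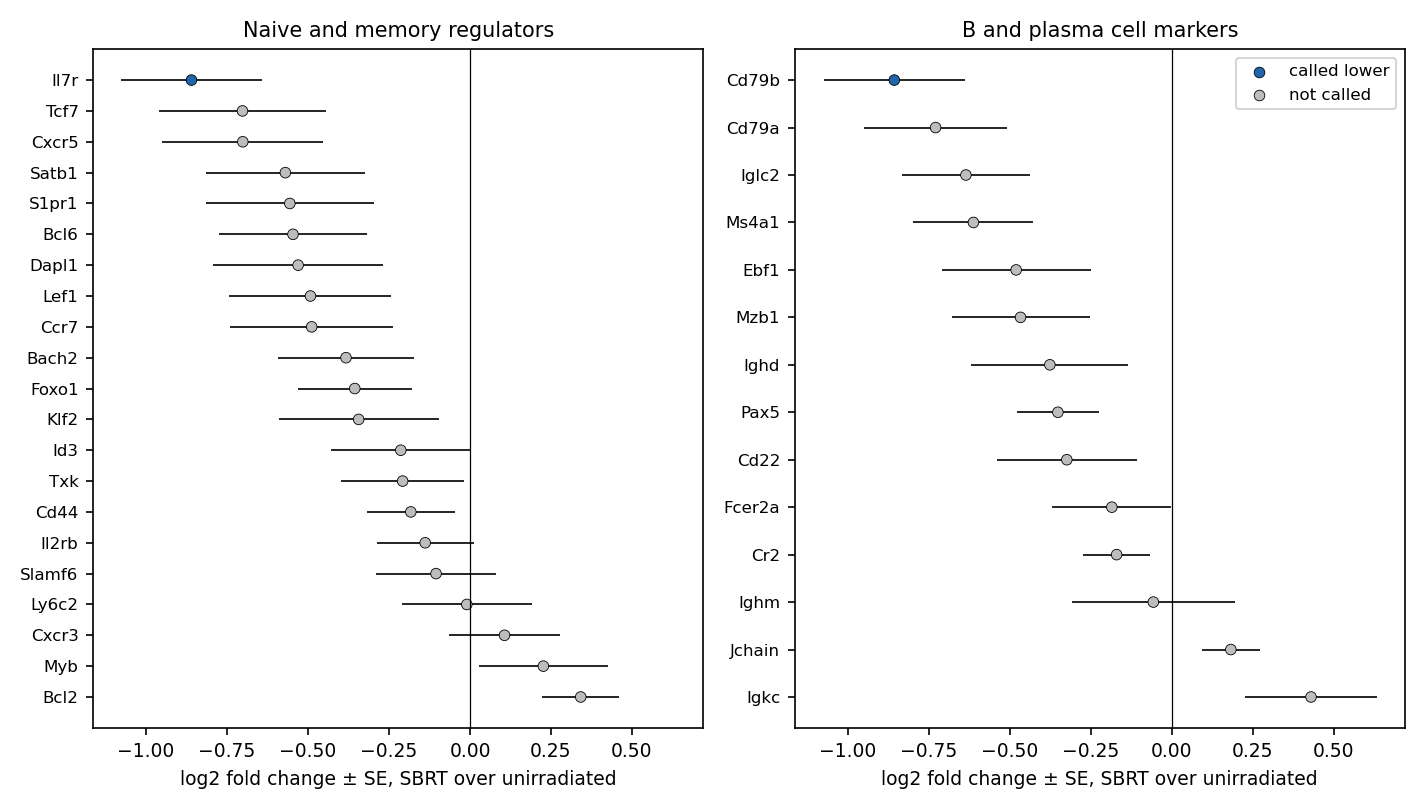
Log2 fold change with its standard error (horizontal axis) for 21 of the 22 naive and memory regulators (left) and 14 of the 15 B and plasma cell markers (right), SBRT over unirradiated. Blue points passed the adjusted threshold and grey points did not; Il7r and Cd79b are the called genes, at -0.86 each, and Bcl2, Myb, Cxcr3, Igkc and Jchain lie above 0.

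Cytotoxic and inhibitory genes of CD8 T cells gave no call. Of 19 cytotoxic effectors with an adjusted p, 15 were above 0 and the median was 0.15. Gzmb, granzyme B, among the most abundant transcripts at a level of 92050, had 0.52 ± 0.16 (adjusted p = 0.12), Ifng, interferon gamma, 0.38 ± 0.20 (adjusted p = 0.50) and Prf1, perforin, 0.13 ± 0.18. At an unadjusted p under 0.05, 3 effectors were higher and 1 lower. The 24 inhibitory receptors and exhaustion genes had a median of -0.08, with Pdcd1 (PD-1) at -0.04 ± 0.16, Havcr2 (TIM-3) at 0.13 ± 0.17, Lag3 at 0.09 ± 0.19 and Tox, a transcription factor of exhausted cells, at -0.02 ± 0.19. In that list 1 gene was higher and 2 were lower at an unadjusted p under 0.05. The higher one, Lilrb4a, an inhibitory immunoglobulin-like receptor, missed the threshold narrowly (0.76 ± 0.21, adjusted p = 0.052). The 13 tissue residency genes had a median of -0.25, with 2 lower at an unadjusted p under 0.05 and Itgae, the integrin CD103, lowest (-0.65 ± 0.24, adjusted p = 0.23). The 15 CD8 identity genes had a median of -0.11, 14 of them were below 0, none was called, and 2 were lower at an unadjusted p under 0.05.

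Interferon-inducible genes were raised in part. In the interferon gamma list 2 of 28 rose (7.14%, against 0.306% of all genes called higher) and 0 fell, and the median was 0.08. Both were guanylate-binding proteins, GTPases that attack intracellular microbes: Gbp6 rose by 0.63 ± 0.14 (adjusted p = 0.013) and Gbp3 by 0.47 ± 0.12 (adjusted p = 0.027). Gbp10 had 0.54 ± 0.16 (adjusted p = 0.11) and Gbp4 0.37 ± 0.13 (adjusted p = 0.21); members of this family are close copies, and shared reads make single members uncertain. Irf1, a regulator of the response, had 0.05 ± 0.14. Ly6a, the surface protein Sca-1 and an interferon-inducible gene outside the list, rose by 0.46 ± 0.11 (level 22501, adjusted p = 0.023). Of 37 type I interferon genes none was called and 6 were higher at an unadjusted p under 0.05, while 31 were above 0 (median 0.19). Of the promoters shown, that of Gbp3 holds the response element, which was in 12 of 19 interferon gamma promoters (63.2%) and 3.49% of all.

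**Figure D3:**
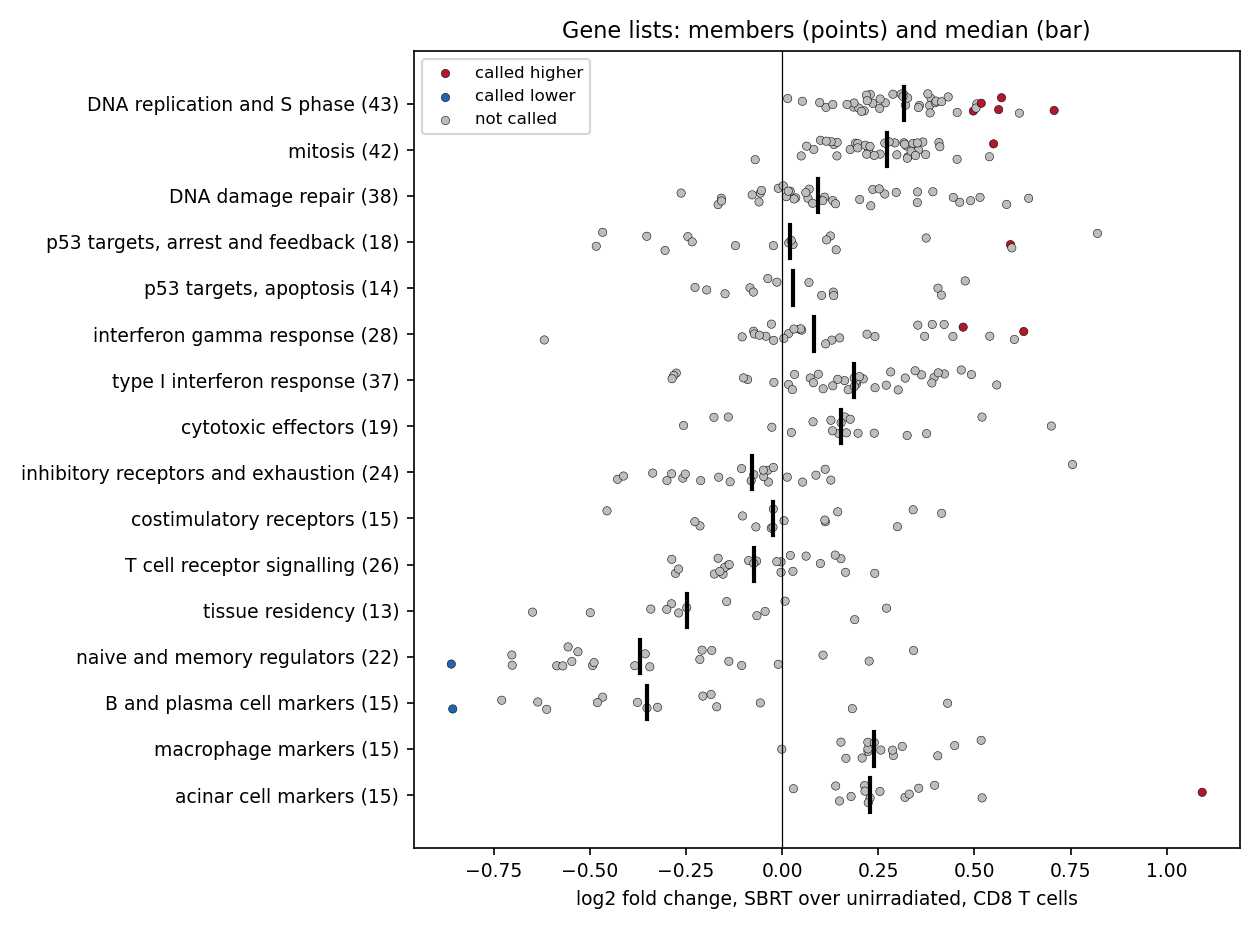
Log2 fold changes (horizontal axis) of the members of 16 gene lists, with the number of genes carrying an adjusted p in brackets; black bars are medians. All S phase genes lie above 0 (median 0.32), the naive and memory list is centred at -0.37, and called genes (red higher, blue lower) are few in every list.

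The largest changes among called genes were spread over genes of many roles. Prss2, an acinar trypsinogen, had the highest (1.09 ± 0.24, level 275, adjusted p = 0.0068). It was the only 1 of 15 acinar markers called (6.67%, against 0.306% of all genes called higher), while all 15 were above 0 (median 0.23). The reads of Prss2 may be shared with other trypsinogen genes. Bzrap1, a binding protein of the mitochondrial benzodiazepine receptor, was 2.07-fold higher (1.05 ± 0.22, adjusted p = 0.0053). Cd80, a costimulatory ligand of antigen-presenting cells, rose by 0.92 ± 0.22 (level 248). The macrophage markers had a median of 0.24 with 14 of 15 above 0 and 2 at an unadjusted p under 0.05; their part in the Cd80 value was not tested. Ankle1, an endonuclease, and Msc, a transcription factor, each rose by 0.88, Dmwd by 0.85, Upp1, uridine phosphorylase, by 0.84 and Tube1, epsilon-tubulin, by 0.74. Foxd2os, an antisense transcript, had 0.76 ± 0.19, and since the library kit does not mark strand its reads cannot be told apart from those of an overlapping gene. The clone-named genes RP24-264B23.2 and RP24-286J21.7 rose by 0.95 and 0.82.

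On the lower side RP23-317N1.2, a clone-named gene, had the lowest value (-1.30 ± 0.24, adjusted p = 0.00057). F2rl1, a protease-activated receptor, fell by 0.90 ± 0.23, Rab6b, a GTPase of Golgi traffic, by 0.88, Klhl8 by 0.85, Mcoln3, a lysosomal ion channel, by 0.79, and Neto2 and Fam234a by 0.68 each. Acss1, which makes acetyl-CoA from acetate in mitochondria, fell by 0.69 ± 0.16 (level 1671, adjusted p = 0.011). Arnt, the partner of hypoxia-inducible factors, fell by 0.58 ± 0.15. Of 103 receptor alpha variable segments with an adjusted p, 5 fell (4.85%, against 0.165% of all genes called lower) and 0 rose. The list median was -0.13. Those that fell were Trav9n-3 and Trav9d-3 (-1.05 each), Trav6n-6 (-0.90), and Trav14n-2 (-0.83) and Trav14d-2 (-0.82). The pairs have near-identical levels (422 and 151), being near-identical copies that share reads, so they do not count as separate genes. Of the 77 called genes 8 are clone-named, 6 are receptor segments, and 65 stand in none of the 42 gene lists. That last count leaves aside the groups formed by name pattern, such as the receptor segments.

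At the threshold the deposited values run on without a break. The called genes nearest to it were Pold1, Tdp2, Dffa, Smpdl3a and RP23-387F9.3, with adjusted p between 0.048 and 0.050, and the nearest uncalled ones included Atp1b1, Il6, Rgs10 and Wdhd1, an S phase protein (0.60), at 0.052. The Wald statistics of this comparison had a robust spread of 1.24 where 1 is the theoretical value. When that spread was used as the null, 1 gene passed, Ccne1 (adjusted p = 0.015).

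The same radiation step was available in other CD8 libraries, as SBRT plus IL-12 over IL-12, with 3 libraries in each group and none from the comparison above. It was taken as the difference of 2 effects, each the deposited Wald statistic times a shared standard error. The unirradiated control cancels in it only as far as the standard errors of the 2 comparisons are equal. All 43 S phase genes were again above 0 (median 0.28) and 41 of 42 mitosis genes were (median 0.25), against 47.6% of all genes. Of the 77 called genes 59 had the same sign there, 42 of the 50 that rose and 17 of the 27 that fell. Those shares stand beside 47.6% of all genes above 0, with a median of -0.01. The median there was 0.19 for the genes that rose and -0.03 for those that fell, the latter near that of all genes. With a conservative standard error 6 of those 59 had an unadjusted p under 0.05. Ccne1 had 0.34 ± 0.12, Recql4 0.67 ± 0.24, Cdkn1a 0.53 ± 0.22 and Orc1 0.37 ± 0.21. Il7r was at 0.20 ± 0.31 and Mcm9 at 0.24 ± 0.17, opposite in sign to their values without IL-12. The naive and memory list had a median of -0.05 there, with 5 of 22 above 0, and the B and plasma cell markers -0.36, with 0 of 15 above 0. The ribosomal protein genes had a median of -0.07, with 19 of 85 above 0. The interferon gamma list had a median of -0.05, with 11 of 28 above 0, and the type I interferon list -0.06, with 18 of 37 above 0. Prss2 was at -0.50 ± 0.30, all 15 acinar markers were below 0 (median -0.46), and 14 of 15 macrophage markers were (median -0.35). The part of acinar cells and macrophages in the other values was not tested.

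Across all genes this step gave 1 call of 33127 (0.00302%), the light chain segment Igkv12-44, lower, and 440 genes had an unadjusted p under 0.05. The test of whether the SBRT effect differed with and without IL-12 also gave 1 gene, the same segment, lower with IL-12. Neither call held with each table's own fold change and standard error, where Igkv12-44 did not pass (adjusted p = 1 in both tests) and Tram1l1 passed as higher in both (0.62 ± 0.11, adjusted p = 0.00087 on the IL-12 background), with RP24-176O2.2 lower in the latter test. These genes were named after their values were seen. None of the 77 called genes passed either test.

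**Figure D4:**
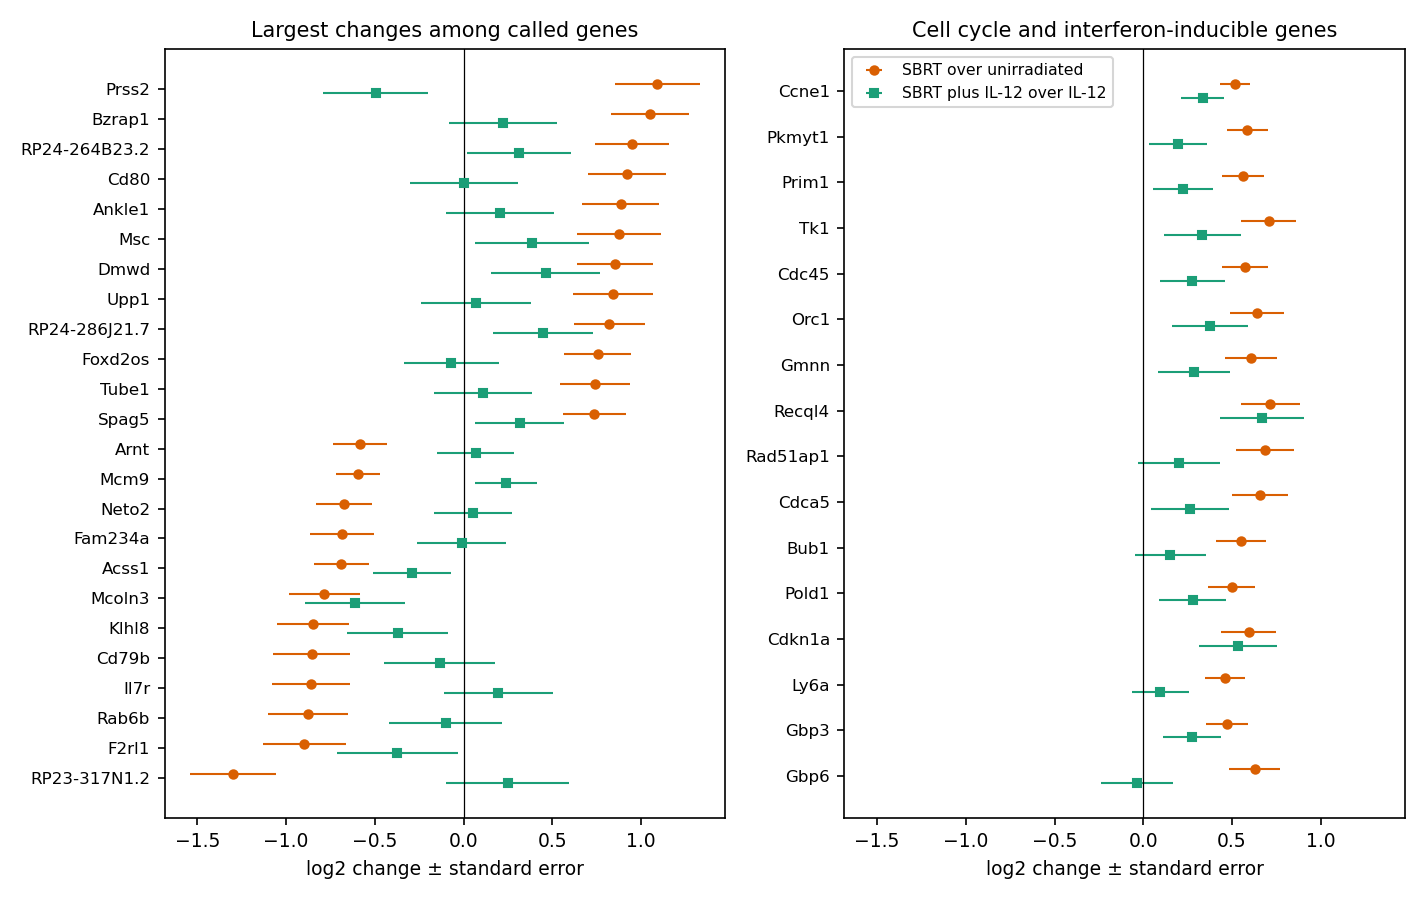
Log2 change with its standard error (horizontal axes) after SBRT, without IL-12 (orange circles) and between groups that both received IL-12 (green squares), for the 24 largest named changes (left) and 16 cell cycle and interferon-inducible genes (right). The cell cycle genes of the right panel lie above 0 in both, while Prss2, Il7r and Mcm9 are among those with opposite signs in the 2 settings; that difference passed the test for none of the 3.

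The 3 treatments of CD8 cells share their unirradiated libraries, so their values are given side by side only. Ccne1 had 0.52 after SBRT, 0.33 after IL-12 and 0.67 after both, and Bub1 0.55, 0.81 and 0.96. The S phase list had medians of 0.32, 0.36 and 0.67, with 5, 11 and 37 members called, all of them higher, where 0.471%, 2.52% and 7.47% of all tested genes were called in either direction. The mitosis medians were 0.27, 0.56 and 0.81. Il7r had -0.86, -0.90 and -0.71. Cdkn1a had 0.59, 0.40 and 0.94. The B cell markers had medians of -0.35, 0.05 and -0.28. Tested directly, SBRT and IL-12 differed at 7 of 33127 genes (0.0211%), all lower after SBRT and at a conservative standard error, among them Furin, a protein-processing protease (difference -1.27 ± 0.25, adjusted p = 0.0051), and Sulf2, which edits heparan sulphate (-1.54 ± 0.32, adjusted p = 0.0078). The direction depends on the error used: with the control variance removed 172 genes passed, 86 higher and 86 lower after SBRT, and with each table's own standard error 1 was higher and 8 lower.

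The CD8 response differed from that of the macrophages of irradiated tumours, which share no library with it. TAM had 2 libraries in each of the SBRT and unirradiated groups, and IM had 3. The difference passed at 191 of 29690 genes (0.643%), 137 higher and 54 lower in CD8 cells. Among them were 22 of 43 S phase and 18 of 42 mitosis genes, all higher in CD8 cells, where 0.461% of all genes passed as higher and 0.182% as lower. Cdc45 had 0.57 in CD8 cells and -1.08 in TAM (difference 1.65 ± 0.29, adjusted p = 2e-05), Pkmyt1 0.59 and -1.30 (1.89 ± 0.28, adjusted p = 6.1e-08), and Dtl, a ubiquitin ligase adaptor of S phase, 0.42 and -1.51 (1.93 ± 0.30). Ccne1 also differed (0.99 ± 0.21, adjusted p = 0.00096). The list medians were 0.32 against -0.61 for S phase and 0.27 against -0.75 for mitosis.

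Some p53 targets differed the other way. Of the 18 arrest and feedback targets 6 passed, all lower in CD8 cells, against 0.182% of all genes that passed as lower. The list median was 0.02 in CD8 cells and 0.72 in TAM. Of 14 apoptosis targets 2 passed and of 15 repair and metabolism targets 2, all lower in CD8 cells. The median differences of these 2 lists were -0.27 and -0.05, with 4 of 14 and 6 of 15 above 0. Phlda3, an inhibitor of AKT signalling, had 0.60 in CD8 cells and 3.49 in TAM (difference -2.90 ± 0.28, adjusted p = 1.6e-20). Ccng1 had 0.02 and 1.38 (-1.36 ± 0.23), Bbc3 -0.15 and 1.58 (-1.72 ± 0.30) and Zmat3, an RNA-binding p53 target, 0.02 and 1.66 (-1.63 ± 0.29). Cdkn1a rose in both cell types, by 0.59 and 1.41, and the difference passed (-0.82 ± 0.22, adjusted p = 0.035).

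Against the monocytes only 6 of 30055 genes differed (0.020%), with 1508 at an unadjusted p under 0.05. Casc5, a kinetochore scaffold, had 0.50 in CD8 cells and -0.79 in IM (difference 1.39 ± 0.30, adjusted p = 0.033), and Mcm9 -0.60 and 0.30 (-0.89 ± 0.19, adjusted p = 0.033). H2-T9 and RP23-108F2.19 also passed, with CD8 values of 0.06 each. So did the segments Trav9n-3 and Trav9d-3, which stood at a level of 2.08 in monocytes, so that their difference rests on the CD8 value. With a level of at least 50 in both populations 4 genes differed, 3 higher and 1 lower in CD8 cells. The monocyte medians were 0.08 for S phase and -0.10 for mitosis. Of the 77 genes called in CD8 cells, Ly6a and Upp1 were also called in IM, where 0.519% of all tested genes were, and 11 in TAM, where 2.08% were. Of those 11, 6 had the same direction in both.

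**Figure D5:**
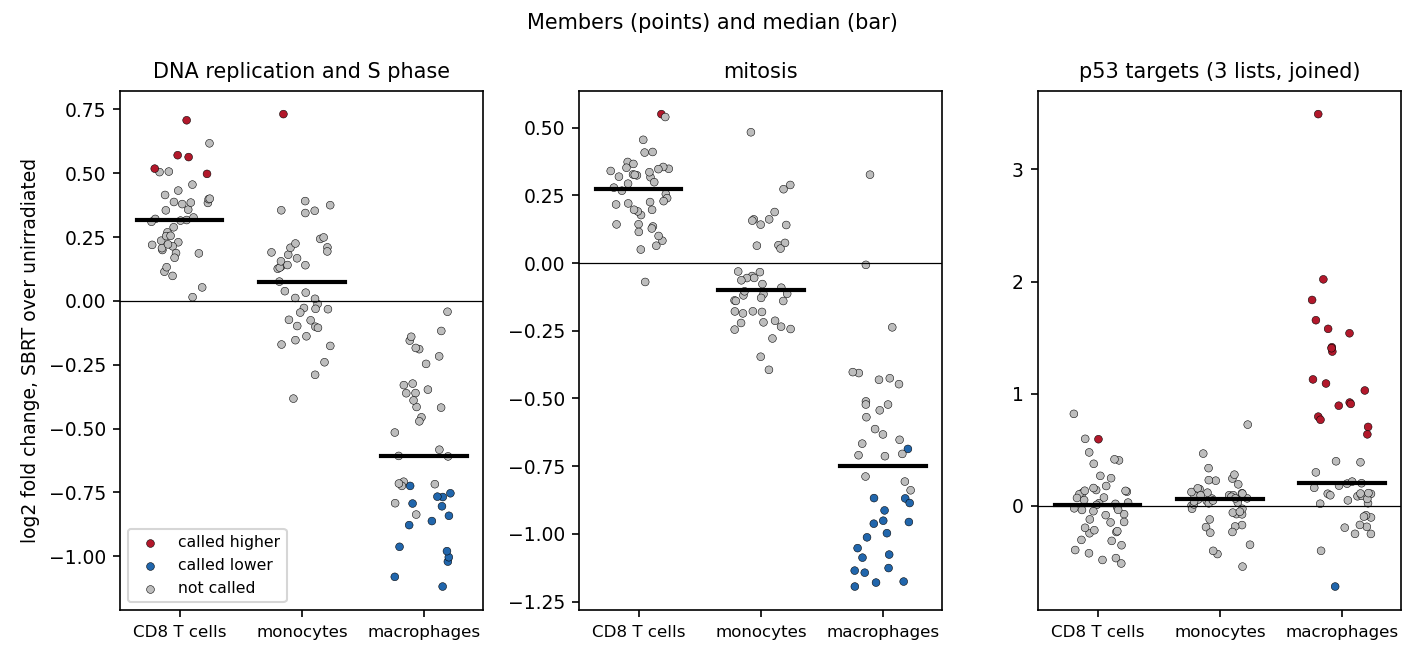
Log2 fold change of SBRT over unirradiated (vertical axes, separate scales) in CD8 T cells, monocytes and macrophages for S phase genes, mitosis genes and 3 joined lists of p53 targets. Bars are medians; S phase and mitosis genes sit mostly above 0 in CD8 cells and mostly below 0 in macrophages, and the called p53 targets (red) are mostly in macrophages.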

How the data were processed

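RNA of sorted CD8 T cells, monocytes and macrophages was sequenced after TruSeq V2 library preparation, per the labels. The submitters' processing notes name build GRCm38, with STAR 2.6.0c, Trimmomatic 0.36, FastQC 0.11.8, Salmon, Subread and featureCounts, without their order. The DESeq2 version and design are not given in the sources used here. Of the 9 tables the authors deposited, the SBRT over unirradiated table of CD8 cells is the one described. Per the file headers its values are a normalised signal (the mean of size-factor-scaled counts over libraries), a log2 fold change, a Wald statistic (a score), a p-value and an adjusted p-value. The normalised signal deposited by the authors was the same in the 3 tables of a population. The log2 fold change deposited by the authors is shrunken, which understates changes of low genes. The score deposited by the authors has a 2-sided normal probability equal to the deposited p-value. Depth per library is unknown, so no interval for counting error is given.

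A gene was called at a deposited adjusted p-value below 0.05, with direction from the Wald statistic, and rose or fell only then. The value after ± is the size of the ratio of fold change to statistic, an approximate standard error, since the statistic may belong to the fold change before shrinkage: the signs of both differed for 79 genes of this table, 12 of them with an adjusted p and none called. Differences between comparisons were put on 1 scale (the statistic multiplied by the median error of a population's 3 tables) and given a 2-sided normal p, adjusted by Benjamini-Hochberg across genes with a p in both; within CD8 cells the shared-control covariance was left out, which is conservative. This test was tried on simulated data with normal errors of the standard error used. Such data cannot show how it behaves at a wider spread, such as the 1.24 of the Wald statistics of this comparison. Exon lengths and gene positions are from GENCODE M21, matched by symbol (pandas 2.3.3, scipy 1.17.1). The 42 gene lists and 11 name patterns, like the comparison itself, were chosen with earlier results of these data known. The rule for naming took the 12 highest and the 12 lowest fold changes among called genes at a level of at least 50, without predicted genes, pseudogenes and receptor segments, plus up to 4 members per list with the smallest adjusted p, a set list of p53, T cell and interferon genes, and the 5 highest and 5 lowest differences. Other genes were named after their values were seen. Alternatives were other thresholds, filters on level, an empirical null and other standard errors. Some genes are not reported here.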

Additional observations from a re-analysis of the deposited data

Results flagged for a closer look

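Each of the following genes had an effect of SBRT that differed between CD8 T cells and a myeloid population in the test of the difference itself, given as CD8 minus the other population on the log2 scale. Against monocytes the differences were 1.39 for Casc5, 1.203 for H2-T9, 0.999 for RP23-108F2.19 and -0.89 for Mcm9.

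Against macrophages, cell cycle genes stood on the higher side. Dtl differed by 1.93, Pkmyt1 by 1.89, Kntc1 of the kinetochore by 1.72, Cdc45 by 1.65, Spag5 by 1.60, Mcm5 of the replicative helicase by 1.43 and Top2a by 1.18. Fbln2, a matrix protein gene of low level in CD8 cells, differed by 1.74, Bzrap1 by 1.34 and Msc by 0.89. On the lower side were p53 targets: Phlda3 at -2.90, Ephx1 at -2.35, Trp53inp1 at -2.01, Bbc3 at -1.72, Zmat3 at -1.63, Ccng1 at -1.36 and Cdkn1a at -0.82. The other genes lower in CD8 cells were RP23-317N1.2 at -1.60 and RP24-286J21.7 at -1.46.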

How the results depend on the processing

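The count of 77 called genes was 12 at an adjusted p below 0.01, 129 below 0.1, 40 when adjusted over every gene with a p (36 shared), and 1 under the empirical null. It was 74 and 78 with levels of at least 10 and 50. With the control variance removed, SBRT differed from IL-12 at 172 genes (86 each way) instead of 7, SBRT on the IL-12 background gave 53 instead of 1, and the SBRT effect with and without IL-12 differed at 14 instead of 1 (2 with each table's own standard error; this test of the difference was added after seeing the data). Those larger counts assume equal variances in all groups. The endothelial list median was -0.34 and the kappa segment median -0.02 (1 gene) at levels of at least 50; subtracting the median of all genes changed no list's direction. Lilrb4a passed at levels of at least 50 (adjusted p = 0.050). No paired analysis was possible because the tables hold no values per library, and leaving out replicates was not run for the same reason.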
